A study of Rattus norvegicus with 2 samples.

Results

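The genes described here are the Cyp1 family of cytochromes P450 and the aryl hydrocarbon receptor pathway that controls it, in the liver of rats given senecionine, a toxic pyrrolizidine alkaloid found in ragworts that becomes reactive once P450 enzymes oxidise it in the liver. The list holds 8 genes, which are Cyp1a1, Cyp1a2 and Cyp1b1, the receptor gene Ahr, its repressor Ahrr, its partner Arnt, and the receptor targets Tiparp and Aldh3a1. Array probes were assigned to them through the RefSeq transcript accession that the scanner files give for each probe. Probes of 5 of the 8 genes could be named in this way, among 13667 genes named in all, and Ahr, Ahrr and Tiparp were not analysed here. The 5 genes had 6 probes on 15 spots per array, since Cyp1a2 had 2 probes and the 1 Cyp1a1 probe was spotted 10 times.

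The senecionine group was Sprague Dawley rats dosed by the intragastric route with 35 mg/kg senecionine, and the control group was rats of that strain dosed with sodium chloride. Livers of both groups were taken after 36 h, and RNA of 3 animals per group was pooled and hybridised to 1 single-colour (Cy3) Agilent array. The study's design note also mentions 2 independent experiments, taken here to mean the arrays of the groups, though the wording leaves this unsettled. With 1 array per group, each difference below is between 2 arrays, no test was possible and no p-value is given. Age and sex of the animals are not given in the sources used here.

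The aryl hydrocarbon receptor is a ligand-activated transcription factor that waits in the cytosol in a complex with the heat shock protein HSP90. After binding planar aromatic chemicals or certain tryptophan products it moves to the nucleus, pairs with ARNT and binds xenobiotic response elements with the core sequence GCGTG. Cyp1a2 is made by hepatocytes without added inducer, most strongly near the central vein, whereas Cyp1a1 is low in untreated liver and strongly inducible. Cyp1b1 is known mainly from tissues outside the liver and from stromal cells. AHRR and TIPARP are induced by the receptor and restrain it.

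The arrays differed in sensitivity, which bears on the dim genes of the pathway. Of 43379 spots other than controls, the software called 64.1% well above background on the senecionine array and 44.4% on the control array. The dimmest probe called well above background had a signal of 10.8 intensity units on the senecionine array and of 20.6 on the control array. In all, 19.1% of named genes were detected on the senecionine array only. Signals were scaled to each array's 75th percentile, and a difference of at least 2-fold (a log2 ratio of 1) was counted. Such a difference was seen for 28.9% of the 7803 genes detected on the senecionine and on the control array, with 17.7% lower and 11.2% higher after senecionine. Of the genes past 2-fold 38.8% were on the higher side, and 67.3% without scaling between the arrays. All measured genes together had a median log2 ratio of -0.14 as scaled and of 0.27 without scaling. The error given beside a log2 ratio is the scanner software's spot error, a technical error that does not include the spread between animals.

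The liver label was checked against marker genes. All 5 named hepatocyte markers were well above background on both arrays, and their signals summed to 1697 times the 75th percentile on the senecionine array and to 2492 times on the control array. Of 13 named brain markers 8 were well above background on each array, but their summed signal was 4.68 times the 75th percentile on the senecionine array and 65.4 times on the control array. Most of the sum on the control array was the neuronal tubulin Tubb3, with 373 units on the senecionine array and 5620 units on the control array. Of the 6 measured brain markers 5 passed 2-fold on the lower side and 2 more were detected on the control array only, while Syt1 and Gfap were detected on the senecionine array only. Whether the control pool held RNA of another tissue was not tested. Neutrophil markers, detected in 7 of 7 cases on the senecionine array and in 4 on the control array, summed to 77.7 times the 75th percentile on the senecionine array and to 4.68 times on the control array. Most of the sum on the senecionine array was S100a8 and S100a9, with 4559 and 4412 units there. Of 4 measured, 3 passed 2-fold on the higher side, while Prtn3 was 2.53-fold lower. Elane, detected on the senecionine array only, read 14.5 units there and 17.9 units on the control array. Bile duct markers summed to 25.1 times on the senecionine array, where 3 of 4 were detected, and to 0.84 times on the control array, where 2 were. Most of the sum on the senecionine array was Spp1, with 2897 units there and 5.15 units on the control array, where it was not detected. Epcam was 5.83-fold and Krt19 3.15-fold higher. Sinusoidal endothelial markers summed to 39.3 times on the senecionine array and to 115 times on the control array, with 4 of 6 measured past 2-fold on the lower side. Macrophage markers summed to 82.8 times on the senecionine array and to 175 times on the control array, with 4 of 7 measured past 2-fold on the lower side and 1 on the higher. The part of these cell types in the values of the Cyp1 and receptor genes was not tested. In pooled tissue, fewer cells of a type and less RNA per cell cannot be told apart.

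Cyp1a2 was the only member of the pathway well above background on both arrays and past 2-fold, and it was lower after senecionine. This enzyme oxidises caffeine, aromatic amines and oestrogens and is an abundant P450 of hepatocytes. Its brighter probe (A_42_P711139) had a processed signal of 4092 ± 409 intensity units on the senecionine array, against 11151 ± 1115 units on the control array (± spot error). After scaling this was a log2 ratio of -1.85 ± 0.20, or 3.61-fold lower. Its dimmer probe (A_44_P142025) gave 187 ± 18.9 units on the senecionine array and 952 ± 95.5 units on the control array, which was 6.77-fold lower at a log2 ratio of -2.76 ± 0.21. Both probes put Cyp1a2 at least 2-fold lower, but their ratios lay further apart than their spot errors.

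The brighter probe's ratio was lower than that of 94.5% of the 7803 measured genes. It was also lower than that of all but 12 of 47 other P450 genes measured on both arrays, and the dimmer probe's ratio was lower than that of all but 3. Of the 47, 28 passed 2-fold on the lower side and 1 on the higher side, beside 17.7% and 11.2% of all measured genes. Their median log2 ratio was -1.20. Cyp1a2 thus lay within the range of the other P450 genes. Its nearest neighbours in that order were Cyp2t1 at -1.95 and Cyp2d2, a debrisoquine hydroxylase, at a log2 ratio of -1.85. The value depended on the scaling in size but not in direction. It was -1.44 in the authors' deposited table, which also lists the dimmer probe at a log2 difference of -2.70. That table covers the same arrays and lists only probes past 2-fold, so no value in it could fall within 2-fold.

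**Figure D1:**
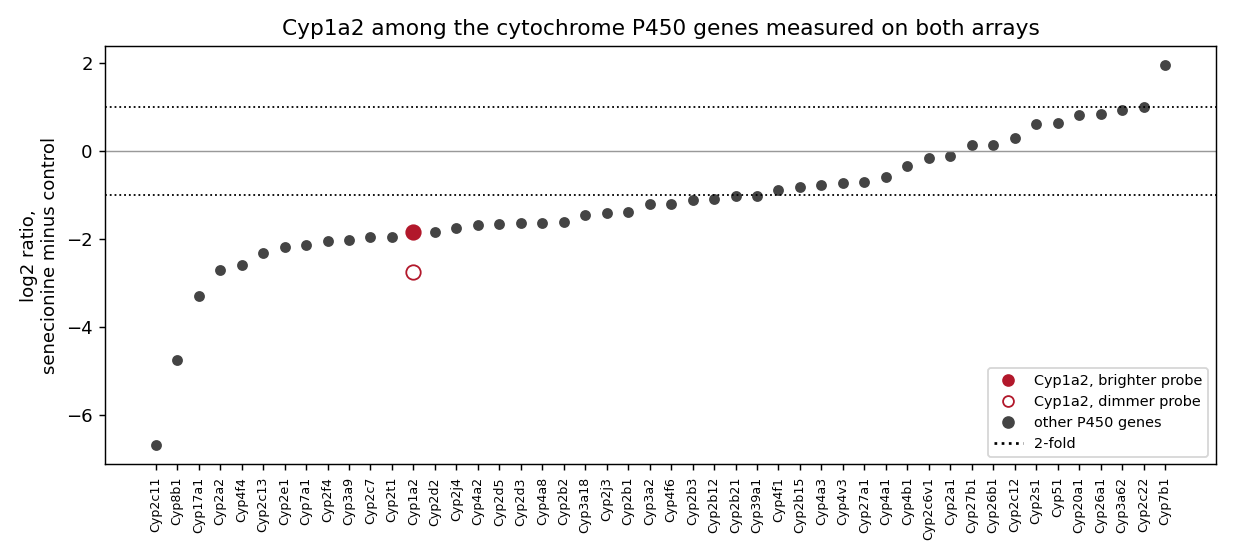
Log2 ratio (senecionine minus control, vertical axis) of each of the 48 P450 genes measured on both arrays, ordered from lowest to highest, with dotted lines at 2-fold. Cyp1a2 (filled red, brighter probe) stands 13th from the lowest at -1.85, and its dimmer probe (open red) lies at -2.76.

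Pericentral genes were read beside Cyp1a2 because it is itself pericentral. Of 7 measured markers of pericentral hepatocytes 4 were at least 2-fold lower and none was higher, beside 17.7% and 11.2% of all measured genes. Their median log2 ratio was -1.14. The vitamin C synthesis enzyme Gulo was 8.62-fold lower, the ornithine aminotransferase Oat 5.78-fold, Cyp2e1, another pericentral P450, 4.52-fold, and the glutamate transporter Slc1a2 2.21-fold. Glutamine synthetase (Glul), the classic marker of the innermost pericentral hepatocytes, had a log2 ratio of 0.64 ± 0.20, and 0.11 on its other probe. The Wnt receptor gene Lgr5 had one of -0.37 ± 0.21. Markers of the opposite, periportal zone were at least 2-fold lower in 3 of 5 cases, beside the same 17.7% of all measured genes. The median log2 ratio of the periportal markers was -2.52, beside -1.14 for the pericentral markers. Sds had a log2 ratio of -3.40, Ass1 of -2.81 and Hal of -2.52, while Pck1 at -0.20 and Cdh1 at 0.01 lay within 2-fold. Albumin (Alb), made by hepatocytes of all zones, was 2.20-fold lower. Whether the zones differ was not tested.

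The promoter window of Cyp1a2 is shown beside that of Cyp1b1, because one of these Cyp1 genes has the receptor's core motif close to its start and the other has not. Both are from RefSeq (assembly GRCr8), run 5′ to 3′ on the gene's own strand and cover the 250 bases before to the 50 bases after the gene's start. Capitals mark GCGTG, or CACGC where the motif lies on the opposite strand. The Cyp1a2 window is chr8:66978100-66978399 on the minus strand, and the Cyp1b1 window is chr6:21094315-21094614 on the plus strand.
Cyp1a2: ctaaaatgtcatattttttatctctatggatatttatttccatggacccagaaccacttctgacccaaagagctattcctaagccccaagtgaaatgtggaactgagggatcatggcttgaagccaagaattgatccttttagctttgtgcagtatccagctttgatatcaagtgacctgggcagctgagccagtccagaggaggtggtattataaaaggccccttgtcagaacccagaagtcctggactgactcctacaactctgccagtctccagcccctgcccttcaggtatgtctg
Cyp1b1: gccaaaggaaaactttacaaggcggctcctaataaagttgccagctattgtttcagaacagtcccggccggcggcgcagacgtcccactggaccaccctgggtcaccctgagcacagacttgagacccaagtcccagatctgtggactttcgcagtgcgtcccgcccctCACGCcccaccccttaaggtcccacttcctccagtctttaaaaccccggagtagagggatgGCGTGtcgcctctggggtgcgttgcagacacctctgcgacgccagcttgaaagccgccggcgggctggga

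The Cyp1b1 window held 2 matches, which begin 81 and 20 bases before its start, and the Cyp1a2 window held none. Of the other members in the table, Ahrr had 3 matches, Arnt and Tiparp 1 each and Ahr none. At least 1 match was present in 29.7% of 33469 promoter windows of this length, so the letters are common. The longer form TNGCGTG was found once each in the windows of Cyp1b1 and Ahrr and in 4.89% of all windows, and it overlaps the core by definition. A match describes the letters only. The absence of one says only that these letters are not in this window, and known response elements of Cyp1 genes can lie further away.

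Cyp1a1 stood on the other side. It encodes the strongly inducible aryl hydrocarbon hydroxylase and is the gene most often used as a readout of receptor activity. On the senecionine array all 10 of its spots were well above background, with a lowest processed signal of 40.3, a median of 57.3 and a highest of 71.1 intensity units. On the control array none of the 10 spots was well above background. There the 9 spots kept had a lowest signal of 5.25, a median of 8.69 and a highest of 16.3 units, and a spot left out for an outlier flag read 19.5. The spots of the 2 arrays did not overlap, but they are repeats of 1 pool each and not replicates of the animals.

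Because the control signal was not well above background, the size of the difference has only a lower limit. Against the lowest signal called well above background on the control array, Cyp1a1 was at least 2.03-fold higher after senecionine. A bound of at least 2-fold was reached by 12.2% of the 2612 genes detected on the senecionine array only, and 88.1% of those genes had a smaller bound than Cyp1a1. The measured means were -1.27 on the senecionine array and -3.49 on the control array (log2, relative to the 75th percentile), a difference of 2.22 ± 0.83. The log2 SD between its spots was 0.23 on the senecionine array and 0.57 on the control array. The authors' deposited table, which lists only probes past 2-fold, has the probe at 5.81 for senecionine and 3.82 for control, a log2 difference of 1.99.

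The bound is close to 2-fold and came under it in some alternatives. It was 0.90 on the log2 scale with median scaling, 0.86 with cyclic loess, and also 0.86 with the floor set at the 1st percentile of detected signals. With normexp background correction and an offset of 50 it was 0.35. That setting also starts from median signals, and its offset is larger than the Cyp1a1 signal of the control array. Cyp1a1 and Cyp1a2 are close relatives that lie next to each other in the genome, and binding of their probes to each other's transcripts was not tested.

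**Figure D2:**
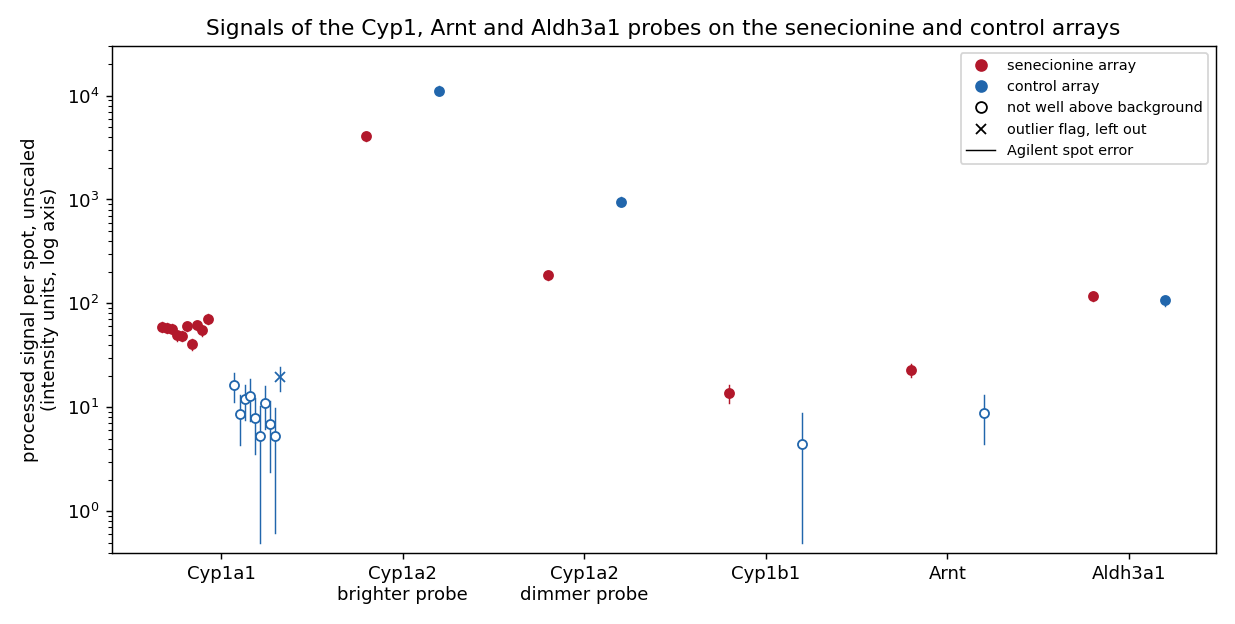
Processed signal of each spot (vertical axis, intensity units on a log scale, before scaling between arrays) for the 6 probes of the 5 named genes, with the senecionine array in red and the control array in blue. Bars are the spot error and are cut at the lower end where they come near 0. Open circles are kept spots not well above background, which are control spots of Cyp1a1, Cyp1b1 and Arnt. The cross is the Cyp1a1 control spot left out for an outlier flag, which was not well above background either.

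Cyp1b1, a P450 of oestrogen and polycyclic hydrocarbon metabolism, was near the limit of detection. Its probe read 13.7 ± 2.61 intensity units on the senecionine array, where it was well above background, against 4.44 ± 4.42 units on the control array, where it was not. The control signal was no larger than its own error. The senecionine signal also lay below the lowest signal called well above background on the control array, so no fold is given. Of the 3 members detected on the senecionine array only, Cyp1a1 alone reached a bound of 2-fold. Markers of stellate cells and fibroblasts, the liver cells in which Cyp1b1 is best known, were mixed. Of 8 measured, 2 passed 2-fold on the higher side and 1 on the lower, beside 11.2% and 17.7% of all measured genes. Decorin (Dcn) was 11.8-fold and desmin (Des) 5.43-fold higher, and the retinol esterase Lrat was 5.02-fold lower. The part of stellate cells and fibroblasts in the Cyp1b1 signal was not tested.

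Of the receptor itself only the partner could be read. Arnt, which pairs both with the aryl hydrocarbon receptor and with the hypoxia factor HIF-1-alpha, read 22.7 ± 3.32 intensity units on the senecionine array and 8.86 ± 4.40 units on the control array. The software called it detected on the senecionine array alone, and after scaling its senecionine signal stayed below the lowest detected signal of the control array, so no fold is given. Arnt2, a relative of Arnt known mainly from neurons, was not well above background on either array, with 8.59 units on the senecionine array and 10.2 units on the control array.

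Of the proteins that hold the receptor in the cytosol, one form of HSP90 was past 2-fold. Hsp90ab1, the constitutive form of HSP90, had a log2 ratio of 0.28 ± 0.20, and 0.61 on its other detected probe. Hsp90aa1, the stress-inducible form, was 5.29-fold higher, with log2 ratios of 2.76 and 2.98 on its other probes. Including these, 9 of the 11 named genes of the receptor complex and its coregulators were measured, 3 of them past 2-fold on the higher side and none on the lower. The shares over all measured genes were 11.2% higher and 17.7% lower. The other higher genes were the general factor Sp1 at 2.38-fold and the nuclear receptor corepressor Nrip1 at 2.29-fold. Probes disagreed for both, since the other probes of Sp1 gave log2 ratios of 0.08 and 0.14 and that of Nrip1 -0.20. Those of Crebbp disagreed too, with 0.31 on the brighter probe and 1.19 on the other detected probe. With the mean over probes Hsp90aa1 was the 1 gene of this list at least 2-fold higher. The clock factor Bmal1, a relative of Arnt, had a log2 ratio of 0.62 ± 0.21.

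Aldh3a1, a cytosolic aldehyde dehydrogenase that receptor ligands induce strongly in rat liver, differed little between the arrays. It read 118 ± 12.1 intensity units on the senecionine array and 107 ± 11.7 units on the control array. After scaling the log2 ratio was -0.27 ± 0.22, and without scaling it was 0.14, so its direction rested on the scaling. It lay within 2-fold in each alternative in which it was measured, and 43.8% of the measured genes had a lower ratio. Among its relatives, 11 other aldehyde dehydrogenases were measured, of which 5 passed 2-fold on the lower side and 2 on the higher side. Over all measured genes 17.7% were lower and 11.2% higher. The folate enzyme Aldh1l1 was 3.69-fold, Aldh8a1 3.60-fold and the proline pathway enzyme Aldh4a1 3.56-fold lower. Aldh3a2, the fatty aldehyde dehydrogenase closest in name to Aldh3a1, was 3.04-fold lower, whereas Aldh3b1 had a log2 ratio of 1.58 ± 0.24 and the retinal dehydrogenase Aldh1a1 was 2.26-fold higher.

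Other genes known to respond to the receptor passed 2-fold about as often as measured genes in general. Of 14 measured, 10 lay within 2-fold, 3 above it and 1 below it, beside 28.9% of all measured genes past 2-fold, with a median log2 ratio of 0.07 that turned to -0.06 with median scaling. The classic battery genes were among those within 2-fold. Nqo1, the quinone reductase, had a log2 ratio of -0.06 ± 0.21. The phenol glucuronosyltransferase Ugt1a6 had one of -0.57 ± 0.21, the bilirubin glucuronosyltransferase Ugt1a1 one of -0.12 ± 0.21, and the glutathione transferase Gsta1 one of -0.65 ± 0.20. Probes of Ugt1a and Gsta genes may bind transcripts of close relatives. The higher genes were the growth factor binding protein Igfbp1 at 17.6-fold, the hormone Fgf21 at 7.12-fold and the cytokine Il1b at 2.15-fold, all of which other stress and inflammatory signals also control. Socs2, a feedback inhibitor of growth hormone signalling, was 2.60-fold lower, but none of the list was 2-fold lower with normexp correction or without scaling. With median scaling Il1b came under 2-fold, which left 2 higher genes. The summed signal of neutrophil markers was higher on the senecionine array as Il1b was, though Prtn3 was 2.53-fold lower. That of macrophage markers was lower there, at 82.8 times the 75th percentile against 175 times on the control array, though Cd68 was 2.09-fold higher. The part of either cell type in the Il1b value was not tested. The targets Ereg, Serpinb2 and Ptgs2 were not well above background on either array.

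**Figure D3:**
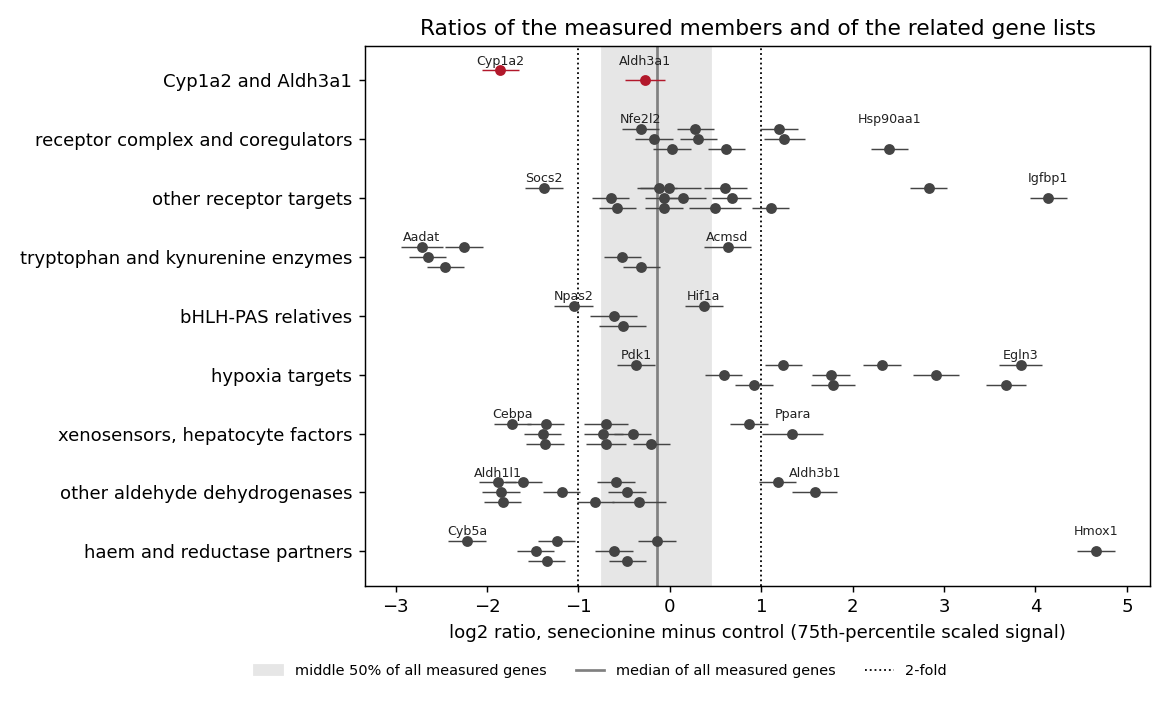
Log2 ratio (senecionine minus control, horizontal axis) of each measured gene with its spot error, by list, against the median (grey line) and the middle 50% (grey band) of all 7803 measured genes, with dotted lines at 2-fold. Cyp1a2 lies at -1.85 and Aldh3a1 at -0.27; the lowest and the highest gene of each other list are named.

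Enzymes that make and consume tryptophan products, some of which are ligands of the receptor, were in part lower. Of 7 measured, 4 were at least 2-fold lower and none was higher, beside 17.7% and 11.2% of all measured genes. Without scaling 1 was higher, beside 20.8% of all measured genes. The median log2 ratio was -2.25 as scaled. The transaminase Aadat was 6.57-fold lower, the kynureninase Kynu 6.27-fold, the dioxygenase Haao 5.49-fold and the kynurenine monooxygenase Kmo 4.77-fold. Tdo2, the liver enzyme that opens the tryptophan ring and starts the pathway, had a log2 ratio of -0.31 ± 0.20. Ido1, which does the same step in immune and other cells, read 7.08 units on the senecionine array, where it was not well above background, and 51.9 units on the control array. It was at least 6.39-fold lower after senecionine. The summed signals of hepatocyte, sinusoidal endothelial, macrophage and brain markers were higher on the control array too, as given above. Those of neutrophil and bile duct markers were lower there. Any link of these cell types to the Ido1 value was not tested.

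Arnt also serves the hypoxia response, and most measured genes of that response were higher. The list had 10 measured genes, of which 7 passed 2-fold on the higher side and none on the lower, beside 11.2% and 17.7% of all measured genes. Its median log2 ratio was 1.77. The oxygen sensor enzyme Egln3 was 14.3-fold higher, the peptide hormone Adm 12.8-fold, the collagen hydroxylase P4ha1 7.52-fold and the glucose transporter Slc2a1 5.01-fold. Ndrg1, which the control array did not detect, was at least 32.5-fold higher. Hif1a, which encodes the partner of ARNT in that response, had a log2 ratio of 0.37 ± 0.20, and 1.03 on its other probe. Of the 4 measured relatives of the receptor in the bHLH-PAS family, none was at least 2-fold higher, and the clock gene Npas2 was 2.07-fold lower, with -0.04 on its other probe and none of the 4 past 2-fold on the lower side without scaling, with normexp correction or with the mean over probes.

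Other xenobiotic sensors and the factors that set hepatocyte gene expression were in part lower. Of 11 measured, 4 passed 2-fold on the lower side and 1 on the higher, beside 17.7% and 11.2% of all measured genes. The median log2 ratio was -0.70. Without scaling 1 was at least 2-fold lower and 2 were higher, beside 10.1% and 20.8% of all measured genes. The count on the lower side thus rested on the scaling. Cebpa, a factor of mature hepatocytes, was 3.30-fold lower, the bile acid receptor gene Nr1h4 2.63-fold, Hnf4a, the central hepatocyte factor, 2.58-fold, and Nr1i2, the pregnane X receptor, 2.56-fold. Ppara, the fatty acid sensor, was 2.53-fold higher on a control signal of 25.4 intensity units, near the lowest detected one. With normexp correction it lay within 2-fold.

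The proteins and the haem that P450 enzymes need were also measured. Past 2-fold stood 5 of the 8 genes, 4 on the lower side and 1 on the higher, or 2 on the lower side with quantile normalization and without scaling. Of all measured genes 17.7% were lower and 11.2% higher, with 15.9% lower under quantile normalization and 10.1% without scaling. Cytochrome b5 (Cyb5a) was 4.66-fold lower, its reductase Cyb5r3 2.76-fold, and the haem synthesis enzymes Alad 2.55-fold and Alas1, which is rate-limiting in liver, 2.36-fold. Por, the reductase that supplies electrons to all microsomal P450 enzymes, had a log2 ratio of -0.14 ± 0.20. Hmox1, which breaks haem down, was 25.3-fold higher.

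Across the scalings and corrections tried, Cyp1a2 stayed at least 2-fold lower on both probes, while the dim probes varied. The measured Cyp1a1 difference ran between 0.35 with normexp correction and 2.63 without scaling.

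**Figure D4:**
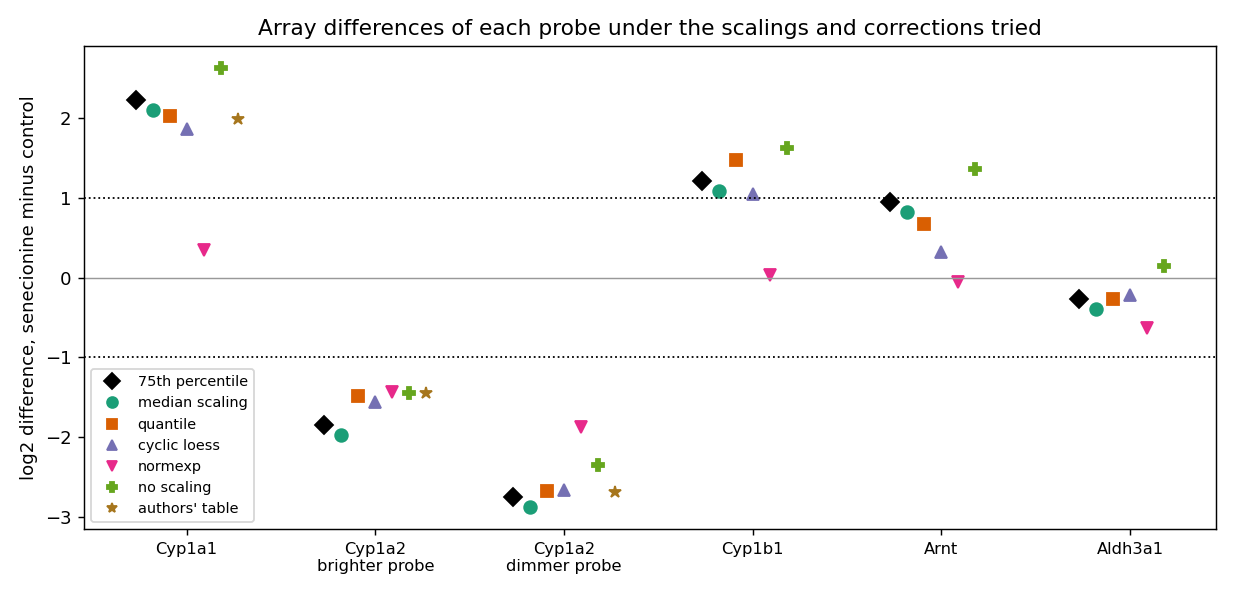
Log2 difference between the arrays (senecionine minus control, vertical axis) of each probe under each scaling or correction, with dotted lines at 2-fold. Both Cyp1a2 probes lie below -1 throughout, Aldh3a1 lies near 0, and Cyp1a1, Cyp1b1 and Arnt, whose control signals were not well above background, fall toward 0 with normexp correction.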

How the data were processed

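Per the file headers, the authors read each array with Agilent Feature Extraction 10.7.3.1 and deposited spot intensity values with the background subtracted but with no scaling between arrays. Here the processed signals were put on the log2 scale relative to the 75th percentile of the array's non-control spots, and repeated spots of a probe were averaged. Spots with an outlier flag, 497 on the senecionine array and 522 on the control array, and all control spots were not used. Of 40516 probes, 17250 were named through unversioned RefSeq accessions in the gene table of assembly GRCr8. The array was designed on another build (rn4, per the file headers), so no probe coordinates are given. A gene's brightest probe detected on both arrays represented it. A gene detected on 1 array only has a lower bound, its signal there against the higher of its own dim signal and the lowest detected signal of the other array.

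The authors' deposited table of log2 values holds 7404 probes, with column medians of 6.10 for senecionine and 6.03 for control, and lists probes past 2-fold. Its scale and centring are not given in the sources used here, and the direction was found against the scanner signals (r = 0.994, Pearson, over 7355 probes, which share the 2 arrays).

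The precision is limited by the number of arrays, 1 per group, and no test was made. The counting was tested on simulated data. The members and lists were chosen with earlier results of these data known. Up to 4 genes per list were named by the size of their ratio, others in any case, and the rest after their values were seen. 1 gene is not reported here. Alternatives were scalings, detection rules, probe rules, fold thresholds, normexp with limma 3.58.1 in R 4.3.3 (on median signals) and the authors' values. Python 3.11.15, numpy 2.4.6 and pandas 2.3.3 were used.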

Additional observations from a re-analysis of the deposited data

How the results depend on the processing

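Of 133 values of the members and counts recomputed under alternatives, 104 stayed within the spot error or within 1.5 times the count and 29 moved. None of the log2 ratios or bounds past 2-fold changed sign. Some alternatives could not change a value, such as the mean over probes for a gene with 1 probe, so the 104 overstate stability. Dim probes also have wide spot errors. The Cyp1b1 difference, 1.21 ± 1.46 as reported, counted as unmoved at 0.027 with normexp. The brighter Cyp1a2 probe was -1.48 with quantile normalization, -1.56 with cyclic loess, -1.44 with normexp correction, -1.45 without scaling and -1.44 in the authors' table, and -2.31 as the mean of both probes. The dimmer probe was -1.88 with normexp and -2.35 without scaling. With normexp the Cyp1a1, Arnt and Aldh3a1 differences were 0.35, -0.055 and -0.63, and Aldh3a1 was 0.14 without scaling. The log2 bound of Cyp1a1 was 0.90 with median scaling, 0.86 with cyclic loess, 0.35 with normexp, 1.43 without scaling and 0.86 with the higher floor. The value that serves as a bound for Cyp1b1, -0.998 as reported, was -1.28 with quantile normalization, -0.18 with normexp, 1.21 over positive and significant spots and -0.59 without scaling. That of Arnt, -0.26 as reported, was -0.56 with cyclic loess and 0.14 without scaling. No member was at least 4-fold lower among the genes counted. Members at least 2-fold higher numbered 0 as reported, 1 over positive and significant spots, 2 with detection on 1 array enough, and 1 in the authors' table. The share of all measured genes that was higher rose too. It was 11.2% as reported, 15.3% over positive and significant spots and 22.6% with detection on 1 array enough. The authors' table lists only probes past 2-fold. Over the 8 related lists 19 genes were lower and 17 higher, and 11 were lower without scaling. Of all measured genes 17.7% were lower and 11.2% higher, and 10.1% were lower without scaling. At 4-fold the lists had 5 lower and 8 higher genes, for which no share of all measured genes is given here. Of the counts and medians of single lists, 208 stayed and 56 moved. Apart from the effect of the fold thresholds, the cause of these shifts was not tested. The unscaled values and the higher floor were chosen after seeing the data. No paired analysis was possible because each group has 1 array. Signal over background limits Cyp1a1, Cyp1b1 and Arnt on the control array.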
